A study of Mus musculus with 6 samples.

Results

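A set of 9 genes that mark B cells and plasma cells was followed here in RNA-seq of cocultured CD8T cells: Cd79a, Cd79b, Ms4a1, Pax5, Ebf1, Cd22, Blk, Jchain and Mzb1. They were taken by gene name from the deposited count table, in which all 9 names were found among 54532 genes. The CD8T cells were isolated from mouse spleen with an isolation kit, stimulated through CD3 and CD28, and kept together with IFN-γ-activated mouse peritoneal macrophages before they were collected. In the 3 control libraries the macrophages received no DB2313. In the 3 DB2313 libraries they were pretreated with this small molecule, which inhibits Spi1 (PU.1), a transcription factor of myeloid cells and B cells. The labels call the sequenced cells primary T cells and name DC cells, not macrophages, as the cells they were incubated with, but divide the libraries by DB2313 in the same way. Strain, age and sex of the mice were not given for these cultures, and neither source says whether the libraries of a group came from separate cultures, so the p-values measure only the spread between these libraries. CD8T cells kept without other cells were not analysed here.

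B cells recognise antigen through a membrane immunoglobulin that is noncovalently bound to the heterodimer of Cd79a and Cd79b, whose cytoplasmic tyrosine motifs are phosphorylated by Src family kinases such as Blk and Lyn. Cd22 is a sialic acid-binding coreceptor that dampens this signal, and Ms4a1 encodes the surface protein CD20. Ebf1 and Pax5 are the transcription factors that establish and hold B cell identity. Plasma cells secrete antibody: Jchain links IgM and IgA into polymers, and Mzb1 is an endoplasmic reticulum cochaperone of antibody assembly. Several of these genes are not limited to B cells. Blk is also used by γδ T cells, Ebf1 by stromal cells and Mzb1 by plasmacytoid dendritic cells.

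The libraries held between 16611975 and 18596217 counts. The 9 genes together took 0.00564% to 0.00609% of the counts of the control libraries and 0.00848% to 0.00864% of the DB2313 libraries, which is 1011 to 1533 counts in a library. T cell genes were counted throughout: a list of 20 T cell markers took 0.320% to 0.322% of the control counts and 0.516% to 0.517% of the DB2313 counts. All 9 genes passed the filter on low counts, after which 14883 genes were tested with edgeR's quasi-likelihood test. Markers of mature B cells were counted unevenly. Cr2 and Fcer2a had at most 16 counts in a library, whereas Ms4a1 had 85 to 143, Ighd 67 to 185 and Fcmr 135 to 276. In RNA of mixed cells, fewer cells of a type and less RNA per cell cannot be told apart.

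The promoters of Cd79a and Cd22 are shown because Cd79a rose and Cd22 fell, and their ratio within a library separated the groups. They were taken from RefSeq on GRCm38.p6, as windows of 250 bases before to 50 bases after the start, read 5′ to 3′ on the strand of the gene. Capitals mark every match to an inverted repeat of the type bound by Ebf1 (TCCC, then 2 bases of any kind, then GGGA), or to GAGGAA, of the type bound by PU.1 and other Ets factors, searched on both strands. The 2 motifs do not overlap in these windows.
Cd79a promoter, chr7:24897247-24897546, plus strand: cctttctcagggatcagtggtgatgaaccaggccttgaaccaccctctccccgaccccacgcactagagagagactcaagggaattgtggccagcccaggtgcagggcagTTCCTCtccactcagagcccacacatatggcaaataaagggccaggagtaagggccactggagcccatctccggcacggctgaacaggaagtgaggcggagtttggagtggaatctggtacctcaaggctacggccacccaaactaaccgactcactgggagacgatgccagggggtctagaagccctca
Cd22 promoter, chr7:30878979-30879278, minus strand: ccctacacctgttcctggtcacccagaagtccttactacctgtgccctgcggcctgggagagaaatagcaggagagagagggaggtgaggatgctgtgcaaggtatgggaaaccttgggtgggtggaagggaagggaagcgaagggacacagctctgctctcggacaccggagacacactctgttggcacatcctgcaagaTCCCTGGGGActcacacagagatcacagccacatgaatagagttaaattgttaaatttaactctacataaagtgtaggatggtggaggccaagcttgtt
The Cd79a window held 1 match to GAGGAA, on the strand opposite to the gene, and none to the Ebf1-type repeat. The Cd22 window held 1 match to the Ebf1-type repeat and none to GAGGAA, and lies inside the Cd22 span of the count table, whose gene model begins farther upstream. Among 32851 windows of the same kind in the reference, 28.3% held GAGGAA and 0.904% held the Ebf1-type repeat. Windows were also found for Pax5, Jchain and Ebf1. Those of Pax5 and Jchain held neither motif, and 1 of the Ebf1 windows held GAGGAA. Any window of Mzb1 was left out of the search. A match describes the letters and not a bound site. Only these exact letters were searched, so a window without a match can still hold a site of either type in other letters. The windows thus do not show that Cd22 has an Ebf1 site and Cd79a has none.

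To ask whether B cell and plasma cell transcripts differed with the treatment of the cocultured macrophages, the 9 genes were compared between the groups. With DB2313, 6 of them rose (Cd79a, Cd79b, Ms4a1, Ebf1, Blk and Jchain), 1 fell (Cd22) and 2 did not pass the test (Pax5 and Mzb1), at an adjusted p below 0.05. Over all tested genes, 20.8% rose and 24.6% fell, or 45.4% in either direction. The median log2 fold change of the 9 genes was 0.47, beside 0.020 over all tested genes and 0.61 for the 20 T cell markers, all of which rose, by 0.32 to 0.74. The groups did not overlap in 7 of the 9 genes, and in 53.1% of all tested genes. For 3 libraries against 3, an exact two-sided permutation test cannot go below p = 0.1. Each of these 7 genes reached that value, as any gene without overlap must, so the test adds nothing to the lack of overlap.

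**Figure D1:**
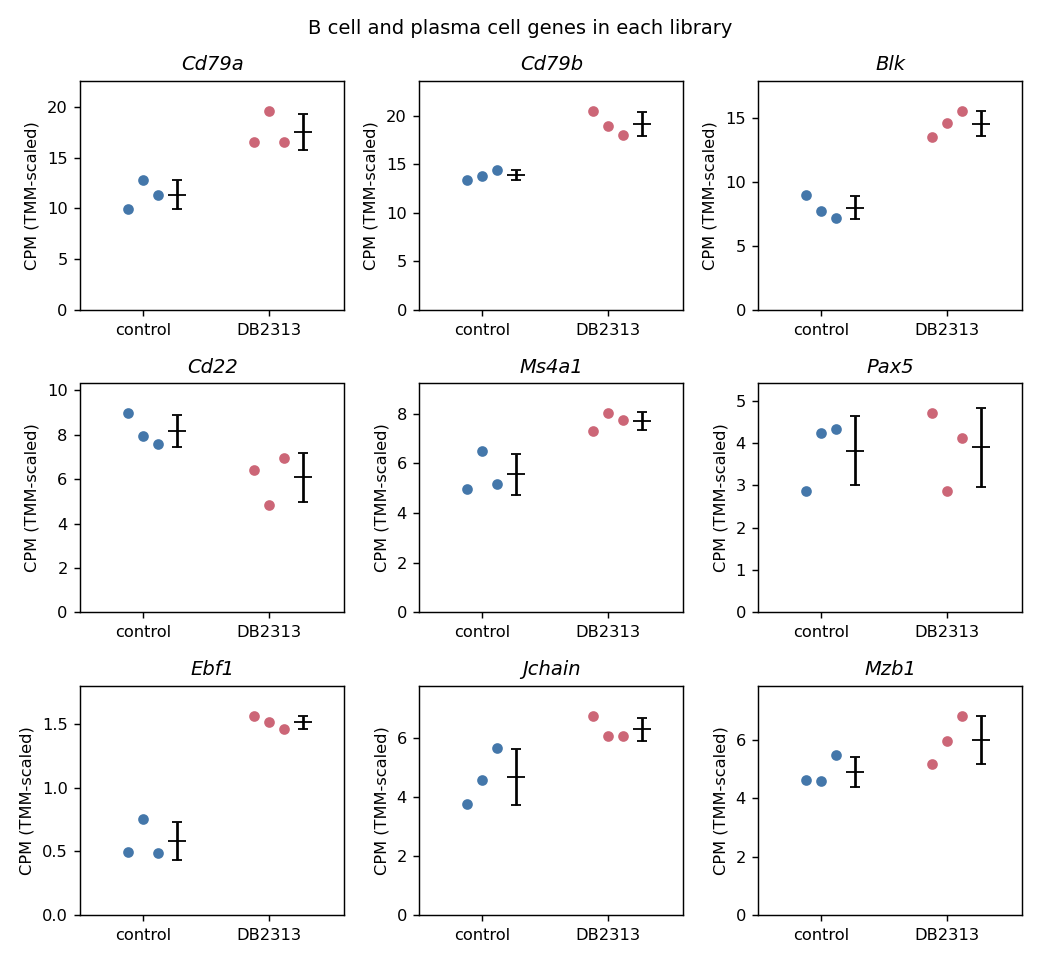
Each panel shows 1 gene in CPM, counts relative to the TMM-scaled library size, on an axis from 0, with 1 point per library and the mean and SD of each group beside the points. The DB2313 libraries lie above the control libraries in Cd79a, Cd79b, Blk, Ms4a1, Ebf1 and Jchain and below them in Cd22. In Pax5 and Mzb1 the groups overlap.

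Both chains of the antigen receptor signalling unit rose. Cd79a (ENSMUSG00000003379, protein-coding, plus strand of chromosome 7 from 24897381 to 24902197) had 180, 221 and 185 counts in the controls and 306, 335 and 304 counts with DB2313. All DB2313 libraries thus lay above all control libraries. In CPM (counts relative to the TMM-scaled size of the library), Cd79a went from 11.4 ± 1.44 to 17.6 ± 1.78 (± SD, n = 3 per group). This is a log2 fold change of 0.63 (standard error 0.11, adjusted p = 6.88e-05, edgeR), or 1.54-fold. Cd79b (ENSMUSG00000040592, minus strand of chromosome 11 from 106311341 to 106314762) had 242, 237 and 237 counts in the controls and 379, 324 and 331 counts with DB2313, again without overlap. It went from 13.9 ± 0.540 to 19.1 ± 1.27 CPM (± SD, n = 3 per group), a log2 fold change of 0.47 (standard error 0.095, adjusted p = 0.000293, edgeR). The chains are needed in equal number in the heterodimer, and their ratio within a library does not depend on scaling. There were 0.819 ± 0.100 Cd79a counts per Cd79b count in the controls and 0.920 ± 0.113 with DB2313 (± SD, n = 3 per group). The groups overlapped in this ratio (log2 difference 0.17, exact two-sided permutation test, p = 0.3).

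The kinase and the inhibitory coreceptor of the same pathway moved apart. Blk (ENSMUSG00000014453, minus strand of chromosome 14 from 63372836 to 63417037), a Src family kinase, had 162, 133 and 118 counts in the controls and 250, 249 and 286 counts with DB2313. Its libraries were well separated, at 7.96 ± 0.908 and 14.5 ± 1.0 CPM (± SD, n = 3 per group). The log2 fold change of Blk reached 0.86 (standard error 0.12, adjusted p = 1.93e-06, edgeR), or 1.82-fold, the smallest adjusted p of the 9 genes. Markers of γδ T cells were higher in the same libraries: 6 of 7 rose (median on the log2 scale 0.69), beside 20.8% of all tested genes. Their list took 0.00537% to 0.00611% of the control counts and 0.00969% to 0.0102% of the DB2313 counts. Tcrg-C4 and Sox13 were at 0.89 and 0.81 on the log2 scale, and none of the 7 was at 0 counts. The part of γδ T cells in the Blk result was not tested.

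Cd22 (ENSMUSG00000030577, minus strand of chromosome 7 from 30865402 to 30880342) had 162, 137 and 124 counts in the controls and 119, 83 and 128 counts with DB2313. After scaling, the lowest control library stood at 7.56 CPM and the highest DB2313 library at 6.95 CPM, so that the groups did not overlap but lay close. The means were 8.16 ± 0.723 and 6.08 ± 1.09 CPM (± SD, n = 3 per group), a log2 fold change of -0.42 (standard error 0.15, adjusted p = 0.0264, edgeR). This call was lost with DESeq2 (adjusted p = 0.0930), with library size scaling (adjusted p = 0.0758), with upper quartile scaling (adjusted p = 0.0539) and when 1 library was left out, if that was DB2313 replicate 2 or one of control replicates 1 and 2 (adjusted p up to 0.140, all edgeR). The antisense gene Gm29439 shares 479 exonic bases with Cd22 and was at 0 counts in every library.

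The distance between Cd22 and Cd79a was seen within each library. In the control libraries there were 0.900, 0.620 and 0.670 Cd22 counts per Cd79a count, and in the DB2313 libraries 0.389, 0.248 and 0.421. The lowest control ratio was above the highest DB2313 ratio, with a log2 difference of -1.07 (exact two-sided permutation test, p = 0.1, the smallest possible). Against Ms4a1 the log2 difference of Cd22 was -0.92, also without overlap. Of the 7 ratios computed, which were chosen after the values were seen, 4 reached p = 0.1 in the exact permutation test, or 0.175 after Benjamini-Hochberg adjustment over the 7.

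**Figure D2:**
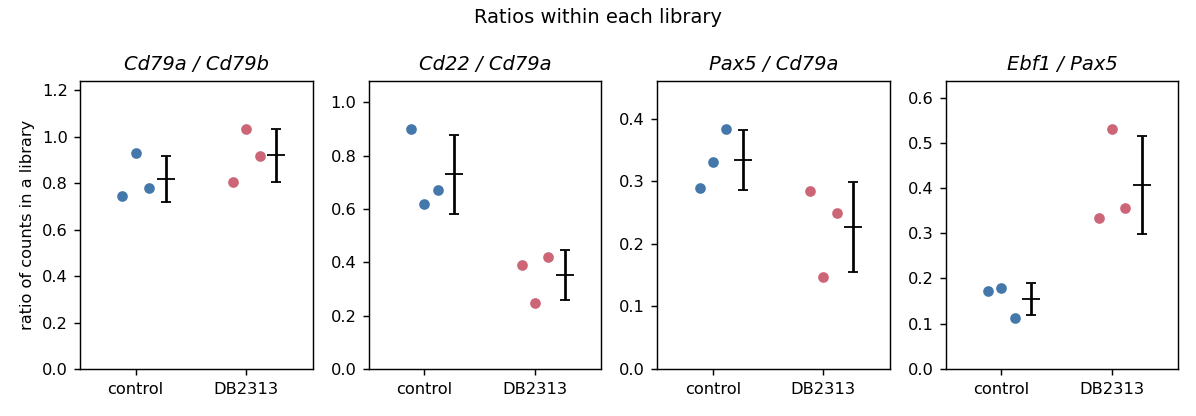
Counts of 1 gene divided by counts of another in the same library, with 1 point per library, the mean and SD of each group, and axes from 0. Cd79a per Cd79b overlaps between the groups, Cd22 per Cd79a and Pax5 per Cd79a are lower in the DB2313 libraries, and Ebf1 per Pax5 is higher.

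Ms4a1 (ENSMUSG00000024673, minus strand of chromosome 19 from 11249675 to 11266241) had 90, 112 and 85 counts in the controls and 135, 137 and 143 counts with DB2313. Every DB2313 library was above every control library, at 5.56 ± 0.828 and 7.69 ± 0.364 CPM (± SD, n = 3 per group). The log2 fold change of Ms4a1 stood at 0.47 (standard error 0.15, adjusted p = 0.0134, edgeR). It no longer passed with DESeq2 (adjusted p = 0.0564) or without control replicate 1 (adjusted p = 0.0663, edgeR), where it was 0.39.

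The transcription factors of B cell identity did not move together. Ebf1 (ENSMUSG00000057098, plus strand of chromosome 11 from 44617317 to 45008091) had only 9, 13 and 8 counts in the controls and 29, 26 and 27 counts with DB2313. The groups were far apart for so few counts, at 0.580 ± 0.151 and 1.52 ± 0.0513 CPM (± SD, n = 3 per group). Its log2 fold change of 1.38 was the largest of the 9 genes (standard error 0.37, adjusted p = 0.00394, edgeR), with a 95% interval from 0.65 to 2.10. Ebf1 was also the only called gene of the 9 whose change exceeded 1 on the log2 scale, which held for 1.38% of all tested genes among rises and for 5.3% among falls. It kept its call with DESeq2 (adjusted p = 0.0213) and without any 1 library (highest adjusted p = 0.0263, edgeR). Markers of stromal cells, which can express Ebf1, had 83 to 138 counts in a library as a list of 8 genes. They took 0.000489% to 0.000812% of the control counts and 0.000480% to 0.000688% of the DB2313 counts, with no defining marker at 0 in all libraries. Of the 3 that were tested, 0 passed in edgeR, 0 had an unadjusted p below 0.05 and 0 passed in DESeq2. Their standard errors on the log2 scale ran from 0.29 (Col1a1) to 0.44 (Pdgfrb). The other stromal markers had too few counts to be tested. The part of stromal cells in the Ebf1 result was not tested.

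Pax5 (ENSMUSG00000014030, minus strand of chromosome 4 from 44524757 to 44710487), which acts together with Ebf1, had 52, 73 and 71 counts in the controls and 87, 49 and 76 counts with DB2313. The lowest and the highest library both belonged to the DB2313 group. The means were 3.82 ± 0.814 and 3.90 ± 0.939 CPM (± SD, n = 3 per group), and the log2 fold change of 0.040 (standard error 0.22, adjusted p = 0.899, edgeR) had a 95% interval from -0.39 to 0.47. Its sign turned without control replicate 1 (-0.13) and without DB2313 replicate 1 (-0.12). Per Pax5 count there were 0.155 ± 0.0364 Ebf1 counts in the controls and 0.406 ± 0.108 with DB2313 (± SD, n = 3 per group), without overlap (exact two-sided permutation test, p = 0.1). Per Cd79a count, Pax5 was lower by a log2 difference of -0.61, with the nearest libraries at 0.289 and 0.284.

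Of the genes of the secreting stage, Jchain rose and Mzb1 did not pass the test. Jchain (ENSMUSG00000067149, minus strand of chromosome 5 from 88519809 to 88527891) had 68, 79 and 93 counts in the controls and 125, 104 and 112 counts with DB2313. No library of one group lay within the other, but the nearest were close, at 5.67 and 6.08 CPM. The means were 4.68 ± 0.958 and 6.31 ± 0.390 CPM (± SD, n = 3 per group), a log2 fold change of 0.44 (standard error 0.17, adjusted p = 0.0416, edgeR). This call was lost with DESeq2 (adjusted p = 0.130) and in 5 of 6 fits without 1 library, with a highest adjusted p of 0.206 without control replicate 1 (edgeR). The fit that kept it was the one without control replicate 3.
Mzb1 (ENSMUSG00000024353, minus strand of chromosome 18) had 84, 79 and 90 counts in the controls and 96, 102 and 126 counts with DB2313. The groups overlapped after scaling, at 4.91 ± 0.504 and 6.0 ± 0.825 CPM (± SD, n = 3 per group). The log2 fold change of Mzb1 stood at 0.29 (standard error 0.17, adjusted p = 0.165, edgeR), with a 95% interval from -0.037 to 0.62. Of 9 markers of plasmacytoid dendritic cells, 3 rose and 2 fell among 7 tested (median on the log2 scale 0.0098). The shares of all tested genes were 20.8% and 24.6%. The list took 0.0182% to 0.0194% of the control counts and 0.0217% to 0.0226% of the DB2313 counts. The rises were in Cox6a2 (1.22), Smim5 (0.73) and Ccr9 (0.57), and the falls in Tcf4 (-0.37) and Runx2 (-0.21), on the log2 scale. Siglech, a receptor of plasmacytoid dendritic cells, was at 0 counts in all 6 libraries. This allows up to 3 counts in each, or 0.181 CPM in the smallest. The part of plasmacytoid dendritic cells in the Mzb1 counts was not tested.

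**Figure D3:**
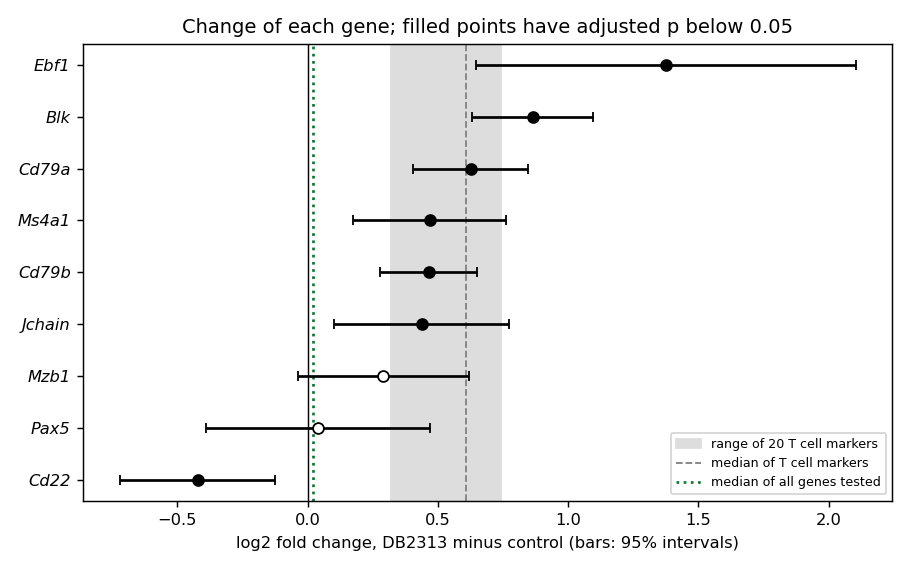
Log2 fold change of each gene (DB2313 minus control, horizontal axis) with bars for 95% intervals. Filled points passed an adjusted p of 0.05, the grey band is the range of the 20 T cell markers from 0.32 to 0.74 with their median at 0.61, and the dotted line is the median of all tested genes at 0.020. Ebf1 and Blk lie to the right of the band, Cd22, Pax5 and Mzb1 to the left.

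The T cell markers rose in the same libraries by a similar amount, and the 9 genes were also set against them. Relative to the median of the T cell markers, Cd79a was at 0.020, Cd79b and Ms4a1 were at -0.14, Jchain was at -0.17 and Mzb1 at -0.32 on the log2 scale. Blk was at 0.26 and Ebf1 at 0.77, while Pax5 was at -0.57 and Cd22 at -1.03. When the libraries were scaled to the summed counts of the T cell markers, only 1 of the 9 genes rose (Blk, log2 fold change 0.27, adjusted p = 0.0412) and 2 fell (Cd22, -1.01, adjusted p = 2.57e-06, and Pax5, -0.55, adjusted p = 0.0267, all edgeR). Under that scaling the signs of Cd79b, Ms4a1, Jchain and Mzb1 turned as well, and the median over all tested genes was -0.57. Over the whole table, 3096 genes rose and 3666 fell with TMM, 4932 and 2852 with library size scaling, 4319 and 3102 with upper quartile scaling, and 160 and 11596 with scaling to the T cell markers.

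Levels were compared between genes as CPM per kilobase of gene length. In the control group the order was Cd79b (9.69), Cd79a (7.80), Mzb1 (5.43), Blk (2.95), Jchain (1.86), Cd22 (1.62), Ms4a1 (0.898), Pax5 (0.431) and Ebf1 (0.0595), of which only Jchain and Cd22 overlapped as neighbours. In the DB2313 group the order was the same for the first 5 genes, and Cd79b overlapped Cd79a and Mzb1 overlapped Blk. Ms4a1 (1.24) and Cd22 (1.21) had changed places there, but their libraries overlapped. The length used for Mzb1 was 905 bases, while GENCODE release M21 gives it 1215 exonic bases. Its place next to Blk in the DB2313 group thus depends on the length used. For comparison, the T cell gene Cd3e stood at 33.3 in the control group and at 41.5 in the DB2313 group on this scale. Among all tested genes, ranked by mean CPM, the 9 genes lay between the 9.27th percentile (Ebf1) and the 43.1st percentile (Cd79b).

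Other genes of B cell receptor signalling were read from a list of 18 genes, which holds coreceptors, kinases, adaptors and phosphatases. Of these, 2 rose, 10 fell and 6 did not pass, with a median log2 fold change of -0.41. Over all tested genes, 20.8% rose and 24.6% fell. The rises were in Fcrla, a B cell protein related to Fc receptors, from 2.18 ± 0.486 to 3.79 ± 0.111 CPM (± SD, n = 3 per group), and in Cd81, a tetraspanin that T cells also carry, at 0.32 on the log2 scale. The largest falls were in Plcg2, the phospholipase of the pathway, at -0.92 (standard error 0.042), and in Lyn, the main kinase of the Cd79 chains, at -0.89 (standard error 0.041). Plcg2, Lyn and several other genes of the list also work in myeloid cells. In the same libraries 13 of 15 macrophage markers fell and 2 rose, with a median of -1.15, and the list took 1.04% to 1.06% of the control counts and 0.373% to 0.384% of the DB2313 counts. None of the 15 was at 0 counts, and the part of macrophage RNA in these falls was not tested. Spi1, the target of DB2313, was at -0.88 (standard error 0.037).

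Of 10 further transcription factors of B cells, 4 rose and 2 fell, with a median of 0.12. The shares over all tested genes were 20.8% and 24.6%. Ikzf3 rose by 0.39 and Bach2, a repressor of the plasma cell fate, by 0.28 on the log2 scale. In the controls, Ikzf3 and Bach2 stood at 8.47 and 6.27 CPM per kilobase of gene length, and Pax5 at 0.431. All 20 T cell markers rose in the same libraries, and the part of T cell RNA in these rises was not tested. Irf8, a factor shared by B cells and myeloid cells, was at -1.08, and Bcl6, the factor of germinal centre B cells, was at -0.39. Spib and Pou2f2 were near no change, at -0.018 and 0.016.

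Of 12 genes for B cell receptors and antigen presentation, 11 were tested, 5 rose and 4 fell, with a median of 0.091. Among all tested genes, 20.8% rose and 24.6% fell. The largest rises were in Fcmr, the receptor of IgM, and in Tnfrsf13c, the receptor of the survival factor BAFF. Fcmr had 135, 143 and 140 counts in the controls and 233, 276 and 276 counts with DB2313. Fcmr rose by 0.85 on the log2 scale (standard error 0.12, adjusted p = 3.71e-06, edgeR). Tnfrsf13c went from 1.96 ± 0.587 to 3.37 ± 0.224 CPM (± SD, n = 3 per group). The largest falls were in Cd24a, at -1.41, and in Cd180, at -0.75, which are also expressed by myeloid cells.

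Of 13 plasma cell and secretory genes, 12 were tested, 2 rose and 5 fell, with a median of -0.12. The corresponding shares of all tested genes were 20.8% and 24.6%. Fkbp11, a folding enzyme of the secretory pathway, rose from 2.58 ± 0.599 to 4.63 ± 0.584 CPM (± SD, n = 3 per group), and the chaperone Hsp90b1 by 0.15 on the log2 scale. Irf4, which plasma cells and activated T cells both use, was at -1.17, and Sdc1, the surface protein CD138, at -1.09. In the same libraries 13 of 15 macrophage markers fell and 2 rose, with a median of -1.15. The part of macrophage RNA in the falls of Irf4 and Sdc1 was not tested. Tnfrsf17, the receptor BCMA of plasma cells, had 3 counts in 1 control library and 0 in the other libraries.

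Of 7 genes of B cell precursors, only Dntt and Rag1 had enough counts to be tested. Dntt, the enzyme that adds nucleotides at the joints of antigen receptor genes in both B and T cell precursors, had 150, 170 and 111 counts in the controls and 252, 233 and 259 counts with DB2313. It rose by 0.73 on the log2 scale (standard error 0.13, adjusted p = 4.77e-05, edgeR). Rag1 did not pass, at 0.40 (standard error 0.33, adjusted p = 0.345, edgeR), and its groups overlapped. The share of all tested genes that rose was 20.8%.
Of the constant genes of immunoglobulins, Ighm, the heavy chain of IgM, stood far above the 9 genes. It was at 257.3 ± 1.94 and 367.2 ± 6.13 CPM (± SD, n = 3 per group), a log2 fold change of 0.51. Of 11 tested constant genes, 8 rose, with a median of 0.51, beside 20.8% of all tested genes. Among these constant genes 0 fell in edgeR, 0 were lower at an unadjusted p below 0.05 and 0 fell in DESeq2. The largest rises at 1 CPM or more were in Ighg2b (1.63) and Ighg2c (0.80), whose reads could be shared between similar genes.

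**Figure D4:**
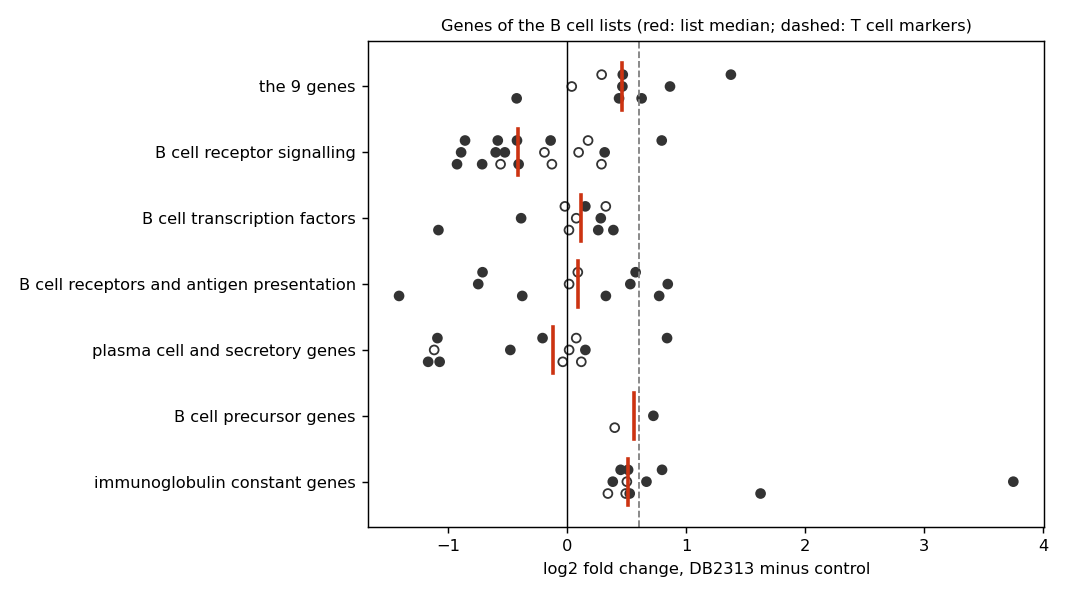
Log2 fold change (DB2313 minus control) of each tested gene, 1 row per list, with red bars at the list medians, filled points for an adjusted p below 0.05 and a dashed line at the median of the T cell markers, 0.61. The medians of the 9 genes (0.47) and of the immunoglobulin constant genes (0.51) lie near the dashed line, and that of B cell receptor signalling lies at -0.41.

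**Figure D5:**
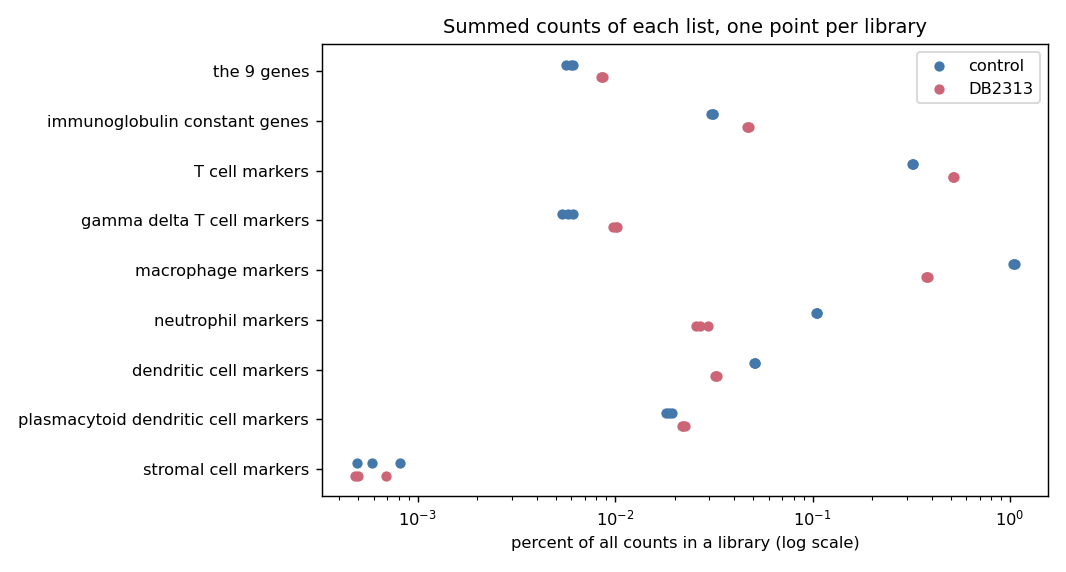
Percent of all counts of a library taken by each list (log axis), with 1 point per library. The 9 genes, the immunoglobulin constant genes, the T cell markers and the γδ T cell markers are higher in every DB2313 library, and the macrophage, neutrophil and dendritic cell markers are lower.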

How the data were processed

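The deposited table holds raw counts per gene for 6 libraries. The labels' processing notes name CASAVA 1.8, HISAT2 2.0.5 and featureCounts 1.5.0-p3, whereas the authors' methods name LifeScope. Genome build, annotation and strand setting are not given in the sources used here. Of the genes shared with GENCODE release M21 on GRCm38, 98.3% had the same start and end; the 9 genes did as well, except Mzb1. The table's gene length, start and end columns are other annotation values that the authors deposited.
Genes were tested over the whole table with edgeR 4.0.16 (filterByExpr, TMM, glmQLFit, glmQLFTest) in R 4.3.3, and p-values were adjusted after Benjamini and Hochberg. Genes were called at an adjusted p below 0.05. Alternatives were DESeq2 1.42.0, other scalings and filters, a replicate block, leaving out each library and a log2 fold change above 1. The scripts were tested on simulated data. From each list other than the 9 genes, up to 2 largest rises and falls with at least 1 CPM were named, with Ighm and Spi1 (another gene of this rule is not reported here); other named genes were chosen after their values were seen. The 9 genes and the lists were chosen with earlier results of these data known. Replicates of a group differed by a chi-square of 2.48 to 3.81 per gene, more than sampling noise, and each library was counted as 1 sample. This spread cannot show whether the libraries came from separate cultures. Floors of 3 counts cover counting error only.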

Additional observations from a re-analysis of the deposited data

How the results depend on the processing

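Of the comparisons of the 9 single genes with alternatives, 95 kept direction and side of the threshold, 23 lost the threshold and 7 turned sign. With DESeq2, 4 of the 9 genes rose and 0 fell, and the median log2 fold change of the genes for B cell receptors and antigen presentation was 0.21, as without the filter on low counts (0.21), where 2 precursor genes rose. Library size scaling moved the median of all genes to 0.11. It gave 4932 higher genes, 0 lower genes among the 9, 4 higher plasma cell and secretory genes, and medians of 0.56 for the 9 genes, -0.32 for receptor signalling, 0.21 for transcription factors, 0.19 for receptors and antigen presentation, -0.026 for plasma cell and secretory genes and 0.61 for immunoglobulin constant genes. Upper quartile scaling gave 0 lower genes among the 9 and, in the same order without the 9 and the plasma cell genes, medians of -0.35, 0.18, 0.15 and 0.58.

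Scaling to the T cell markers shifted all genes, by construction, to a median of -0.57, with 160 higher and 11596 lower genes. Of the 9 genes, 1 rose and 2 fell, with a median of -0.13. Numbers of higher and lower genes, with medians, were 0, 16 and -1.0 for receptor signalling, 0, 9 and -0.47 for transcription factors, 0, 7 and -0.50 for receptors and antigen presentation, and 0, 10 and -0.71 for plasma cell and secretory genes. They were 0, 0 and -0.027 for precursor genes and 1, 2 and -0.082 for immunoglobulin constant genes. Single genes that turned sign were Cd79b (-0.13), Ms4a1 (-0.12), Pax5 (-0.55), Jchain (-0.15) and Mzb1 (-0.30).

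Requiring a log2 fold change above 1 as well left, by construction, fewer calls: 205 genes higher and 789 lower, 1 and 0 of the 9 genes, 0 and 0 of receptor signalling, 0 and 1 of transcription factors, 0 and 1 of receptors and antigen presentation, 0 and 3 of plasma cell and secretory genes, 0 higher precursor genes and 2 higher immunoglobulin constant genes.

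With 1 library left out, 4 to 6 of the 9 genes rose and 0 to 1 fell, with a median from 0.39 to 0.50; 4 rose without control replicate 1, and 0 fell if the library left out was DB2313 replicate 2 or one of control replicates 1 and 2. The median ranged from -0.40 to -0.29 for receptor signalling, from 0.069 to 0.20 for transcription factors (lowest without DB2313 replicate 2) and from 0.53 to 0.87 for precursor genes, of which 1 to 2 rose. Pax5 ranged from -0.13 to 0.22, at -0.13 without control replicate 1 and at -0.12 without DB2313 replicate 1. With at least 10 counts asked of every library, Ebf1 was not tested. Apart from the settings named, the cause of these moves was not tested.

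Libraries with the same replicate number did not deviate together from their group means (correlations across genes of -0.0033, -0.014 and -0.023), and not every library correlated best with its own number, so the numbers were not read as pairs. With the replicate block, 2917 genes rose and 3525 fell, 5 of the 9 genes rose and 1 fell, and Jchain no longer passed (log2 fold change 0.44, adjusted p = 0.0541, edgeR). The 9 genes had 8 to 379 counts in a library, and their standard errors on the log2 scale ran from 0.095 (Cd79b) to 0.37 (Ebf1), so that the sizes of the changes in the genes with few counts are the least certain.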

Other observations

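Some genes of the B lineage had too few counts to be tested. Vpreb1, part of the surrogate light chain of precursor B cells, had 4, 6 and 0 counts in the controls and 9, 22 and 11 counts with DB2313. Its partner Igll1 had 4, 1 and 0 counts in the controls and 2, 0 and 0 with DB2313, and Vpreb2 was at 0 counts in all 6 libraries. Fcer2a, the low-affinity IgE receptor of mature B cells, had 2, 4 and 2 counts in the controls and 1, 3 and 9 with DB2313. Cr2, the complement receptor of mature B cells, was tested and did not pass, with 14, 3 and 13 counts in the controls and 4, 16 and 1 with DB2313.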
